A study of Mus musculus with 4 samples.

Results

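The growth factor receptor kinases of oligodendroglial precursors were examined in RNA-Seq data of mouse oligodendroglial cell cultures with and without a conditional deletion of Zfp276. The group consisted of 10 receptor tyrosine kinases, Pdgfra, Fgfr1, Fgfr2, Fgfr3, Erbb2, Erbb3, Erbb4, Egfr, Igf1r and Met, which were selected by gene symbol from 53465 listed genes. Each symbol matched a single entry, and all 10 receptors passed the filter on low counts that left 15766 genes for testing.

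Receptor tyrosine kinases are transmembrane proteins that bind a secreted or membrane-bound growth factor, form dimers and phosphorylate each other's cytoplasmic tails. Adaptor proteins dock there and activate the Ras and MAP kinase cascade and the PI3 kinase and Akt pathway. In the oligodendroglial lineage, Pdgfra drives proliferation of oligodendrocyte precursor cells (OPCs) and is switched off as they mature, Fgf and neuregulin receptors act on proliferation, survival and myelin growth, and Igf1r supports survival and differentiation.

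The samples were primary (1°) mouse oligodendroglial cell (OGC) cultures from forebrain of mice between P2 and P4, after shake-off and depletion of microglia, that had been in differentiation medium for 3 days (3ddiff). Both genotypes were homozygous for a floxed Zfp276 allele with loxP sites around exons 2 to 5. Ctrl cultures had this allele alone (Zfp276 flox/flox), and Zfp276cko cultures had a Sox10::Cre transgene in addition, so that Cre was present in 1 genotype and its own effect cannot be told apart from that of the deletion. Sox10::Cre is active in cells that express Sox10, which in the forebrain are the oligodendroglia from the OPC stage onward, and other cells of a culture should keep the allele. The methods of the study also describe a Rosa26 reporter allele for tdTomato in the mice bred for culture, which served to identify Zfp276cko newborns, and a mixed C3H and C57Bl/6J background. There were 2 libraries per genotype, numbered 1 and 2 here, each from an independent preparation of 3 mice. PDGF-AA and bFGF, which stimulate Pdgfra and the Fgf receptors, are mitogens of the proliferation medium and are not listed for the differentiation medium, which contained CNTF.

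The libraries held between 21068322 and 26599809 counted reads. Zfp276, the targeted transcription factor gene, had 1648 and 2230 normalized counts in ctrl and 490 and 503 in Zfp276cko, or 25.6% of the ctrl mean. The study relates its remaining transcript to an incomplete deletion. Sox10, a transcription factor of the whole lineage, differed by −0.09 (SE 0.13) on the log2 scale. The summed level of 12 fibroblast and mural cell markers was 670 counts per 1000000 counted reads (CPM) in ctrl 1 and between 37.7 and 57.2 CPM in the other libraries. The 14 oligodendrocyte markers summed to 17164 and 22549 CPM in ctrl and to 11440 and 11809 CPM in Zfp276cko, and the 14 OPC markers to 13271 and 9669 CPM against 7506 and 7449 CPM. Gpr17 had the highest count of the OPC markers, with 113405 and 69766 normalized counts in ctrl against 43296 and 41092 in Zfp276cko. It weighs heavily in the OPC marker sum. The part of these marker lists in the results below was not tested. In such bulk libraries, fewer cells of a type and less RNA per cell cannot be told apart.

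The receptors differed widely in level. Compared per length, as counts per kilobase of annotated exon and 1000000 counted reads (RPKM), Pdgfra ranked first with 53.9 ± 16.3 in ctrl and 49.4 ± 0.839 in Zfp276cko (mean ± SD, n = 2 each). It was followed by Fgfr3 (16.8 RPKM over all libraries), Erbb4 (10.1), Fgfr1 (5.89), Erbb3 (5.16), Igf1r (4.36), Fgfr2 (2.85 to 7.42 between libraries), Met (1.58), Egfr (0.931) and Erbb2 (0.617). Pdgfra lay above Fgfr3 in every library, and so did Erbb4 above Fgfr1, Fgfr2 above Met and Egfr above Erbb2. The remaining neighbours in this order overlapped between libraries and were not separated by their spread. The ranks of 4 receptors, Fgfr1, Fgfr2, Erbb3 and Erbb4, changed with the longest protein-coding transcript as length in place of all annotated exons. By that length the mean over all libraries was higher for Fgfr1 (11.5 RPKM) than for Erbb4 (10.4). The order of Erbb4 and Fgfr1 thus depends on the length used. The receptors' summed RPKM ranged from 90.9 in ctrl 1 to 110 in ctrl 2, with 104 and 100 in Zfp276cko, and Pdgfra alone made up between 46.7% and 59.5% of this sum.

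**Figure D1:**
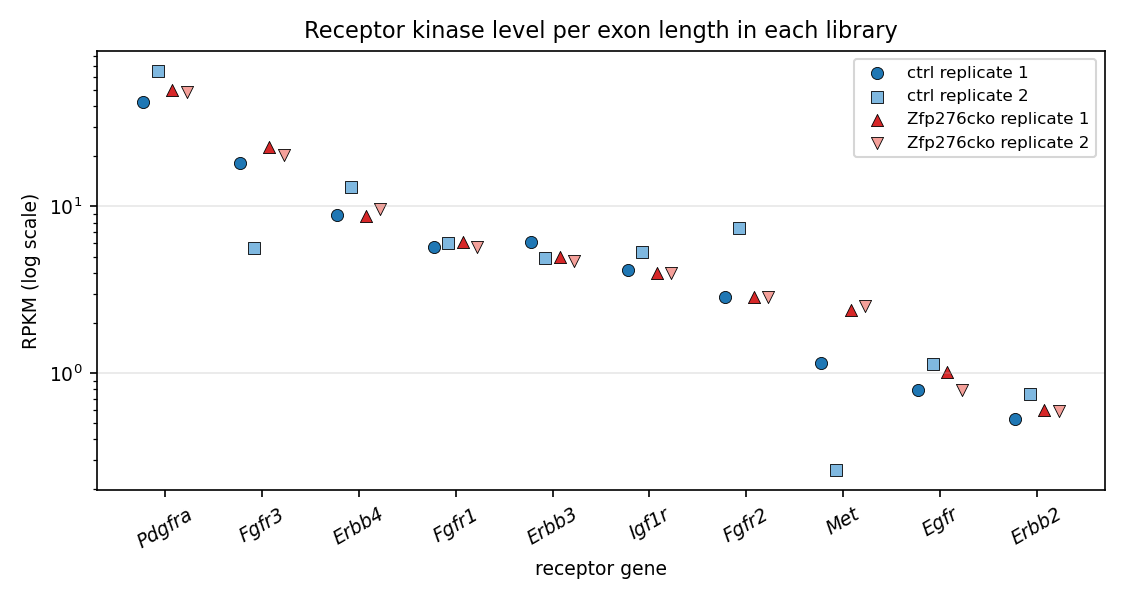
Level of each receptor in RPKM (log scale) in the 4 libraries, 1 point per library, ordered by the mean over all libraries. Pdgfra is highest in each library, and the ctrl libraries are far apart for Fgfr3, Fgfr2 and Met while the Zfp276cko libraries stay close together.

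No receptor passed the test for a genotype difference. A call required an adjusted p of 0.05 or less in edgeR's quasi-likelihood test, provided that its log2 fold change reached 0.6 in size and its mean normalized count 20. Of the 10 receptors 0 were called, as were 0% of all tested genes. At an unadjusted p of at most 0.05, 0 of the 10 passed, against 15.6% of all genes, and DESeq2 called 0 of the 10 against 5.13% of all genes. The median log2 fold change of the receptors was −0.12, with 7 negative and 3 positive values, and that of all tested genes was −0.00125. For 2 receptors, Fgfr3 and Met, the Zfp276cko values both exceeded both ctrl values, where 26.8% of all genes did so. They lay below both ctrl libraries for 2 others, Fgfr2 and Igf1r, where the share among all genes was 23.7%, and Fgfr2 overlapped under 3 alternatives (scaling to Sox10, no filter and at least 10 counts in every library). For the remaining 6 receptors the genotypes overlapped. With 2 libraries against 2, an exact permutation test of a single gene cannot give a two-sided p below 0.333.

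The 3 receptors with the largest differences between genotypes were also those whose ctrl libraries disagreed. The ctrl replicates of Fgfr2, Fgfr3 and Met were at least 2-fold apart, that is 3 of 10 receptors against 12.8% of genes whose mean normalized count reached 20. Of the Zfp276cko replicates, 0 of 10 were that far apart, against 0.335% of these genes, and the widest gap was 1.27-fold for Egfr. Ctrl 2 exceeded ctrl 1 for 7 receptors, and the Zfp276cko mean was nearer to ctrl 1 than to ctrl 2 for 8. These counts, and that of kept signs which follows, were not made over all genes and do not mark out the receptors. The sign of the fold change was kept with each library left out in turn for Fgfr2, Fgfr3, Erbb3, Igf1r and Met, and was not kept for the other 5 receptors. In fits without a ctrl library the remaining ctrl library is assumed to vary like the Zfp276cko libraries.

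**Figure D2:**
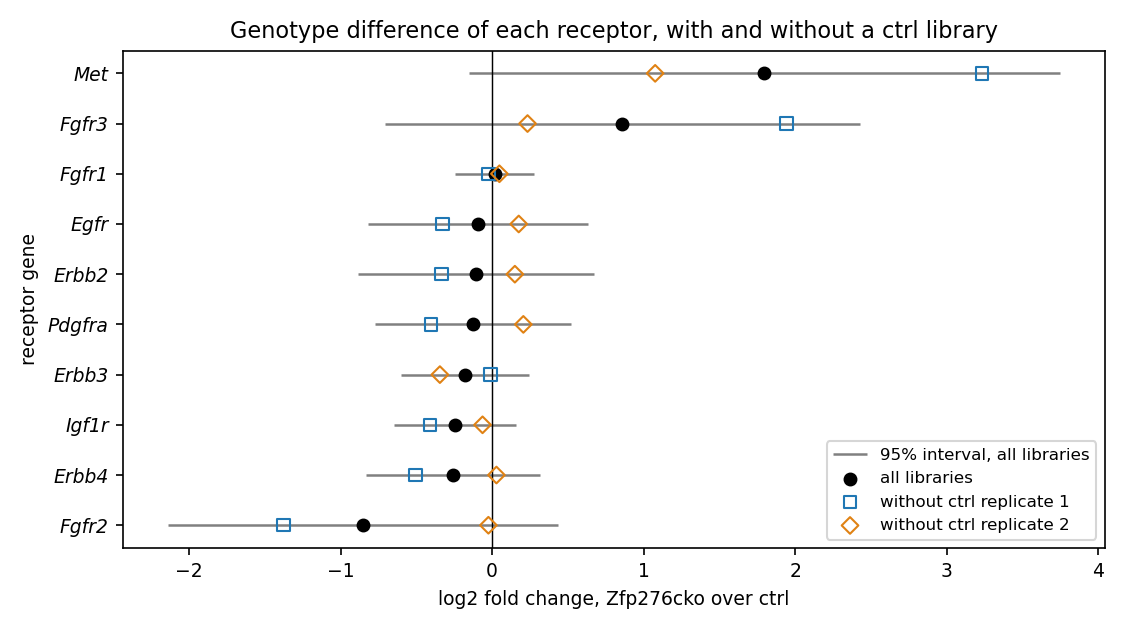
Log2 fold change of Zfp276cko over ctrl for each receptor from edgeR, with its 95% interval over 4 libraries (black point and grey line) and the values without ctrl 1 (squares) or without ctrl 2 (diamonds). Every interval contains 0, and Fgfr2, Fgfr3 and Met move most with the ctrl library that is left out.

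Pdgfra, the receptor for PDGF-AA and the defining receptor of OPCs, lies on mouse chromosome 5 (chr5:75152292-75198215 of GRCm38, plus strand) and has 10024 nt of annotated exon. On the opposite strand Gm42802 overlaps 4.55% and Gm42803 1.66% of it, and the strand setting of the counting is not stated, so reads of both strands may be included. Its promoter is shown with those of Fgfr2, Fgfr3 and Met because these receptors had the highest level or the largest genotype differences. The windows reach from 250 bases before to 50 bases after the RefSeq start site (GRCm38.p6), and 9 windows were found for 8 of the receptors, all but Fgfr1 and Erbb3. Short motifs of 4 kinds were sought on both strands. The TATA box TATAAA was in none of the 9 windows and is in 13.6% of all windows. The others are in capitals where present. They are AAAGGG from the Zfp276 consensus site, ACAAAG or ACAATG as core of Sox10 sites, and GGGCGG, the GC box bound by Sp factors. The letters AAAGGG are fixed in the consensus of the study, which however reports stronger binding after mutation of the last G. Sites with another base there were not sought. AAAGGG and ACAAAG can overlap, which did not occur here. Among 32851 promoter windows of the same length, AAAGGG is found in 21.5%, a Sox10 core in 28.6% and a GC box in 35.7%. A match describes these letters and does not show a binding site. The Pdgfra window (chr5:75152001-75152300, plus strand) has a GC content of 51.0% and none of these motifs.
Pdgfra: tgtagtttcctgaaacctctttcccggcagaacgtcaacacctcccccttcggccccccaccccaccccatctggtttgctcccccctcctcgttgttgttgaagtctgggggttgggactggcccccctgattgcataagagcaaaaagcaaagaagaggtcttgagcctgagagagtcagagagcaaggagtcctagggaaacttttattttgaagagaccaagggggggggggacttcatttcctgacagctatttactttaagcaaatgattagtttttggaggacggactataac

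Pdgfra had 10049 and 15501 normalized counts in ctrl and 11842 and 11561 in Zfp276cko. Both Zfp276cko libraries thus lay between the ctrl libraries, which were 1.54-fold apart. The log2 fold change was −0.13 (SE 0.24, 95% interval −0.77 to 0.52) with an adjusted p of 0.837 by edgeR, and DESeq2 gave an adjusted p of 0.923. It was −0.40 without ctrl 1 and 0.21 without ctrl 2, so the direction depended on the ctrl library used. The fibroblast and mural marker sum, which concerns cells that can also express Pdgfra, was 11.7 times as high in ctrl 1 as in ctrl 2, while Pdgfra was lower in ctrl 1. The part of these cells in the Pdgfra values was not tested. Over the 4 libraries, the genes most alike to Pdgfra by the root mean square difference of centred log2 counts were Slc4a8 (0.00877), Zfp704 (0.0118) and Msh6 (0.0146).

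The other OPC markers are given beside Pdgfra. Of 14 tested OPC markers, 10 lay below both ctrl libraries and 1, the transcription factor gene Sox5, above both, with 0 called by edgeR, 7 lower and 1 higher at an unadjusted p of at most 0.05, and 4 lower and 1 higher by DESeq2. Among all genes, 7.30% were lower and 8.33% higher at that unadjusted p, DESeq2 called 2.21% lower and 2.92% higher, and the shares without overlap were 23.7% below and 26.8% above. Neu4, a sialidase gene, had 5570 and 4465 normalized counts in ctrl against 1577 and 1427. Gpr17, a receptor of committed precursors, had 113405 and 69766 against 43296 and 41092, and C1ql1, a secreted C1q-like protein, 761 and 324 against 141 and 157.

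The PDGF ligands were measured as well. Pdgfa, which encodes the A chain of PDGF, had 2565 and 2432 normalized counts in ctrl and 1150 and 1109 in Zfp276cko. The genotypes were well apart and the replicates close, with a log2 fold change of −1.14 (SE 0.09), an adjusted p of 0.0962 by edgeR and a call as lower by DESeq2 (adjusted p of 6.27e-11). Pdgfb, the B chain, had 80.7 and 138 against 243 and 212 (log2 fold change 1.05, SE 0.33, adjusted p of 0.272). Pdgfc and Pdgfd, whose products need cleavage to bind, overlapped between the genotypes, with values between 157 and 242 and between 11.9 and 20.6.

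The Fgf receptors Fgfr1, Fgfr2 and Fgfr3 bind fibroblast growth factors together with heparan sulfate. Fgfr1 (chr8:25513654-25575718, plus strand) was the most even of all receptors. It had 1325 and 1407 normalized counts in ctrl and 1438 and 1328 in Zfp276cko, with a log2 fold change of 0.02 (SE 0.10, 95% interval −0.24 to 0.28, adjusted p of 0.950). The values interleaved, and the interval limits a difference to 0.28 in either direction on the log2 scale. Its closest genes in pattern were Ddx19a, Exoc1 and Pnpla2, each with a root mean square difference of at most 0.00936.

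The annotated span of Fgfr2 on chromosome 7 (chr7:130162451-133123350, minus strand) includes long transcripts that share 3.04% of its exon length with Ctbp2 on the same strand. Fgfr3 lies on chromosome 5 (chr5:33721674-33737068, plus strand), and 13.9% of its exon length is overlapped on the opposite strand by G630022F23Rik, so a part of its counts is uncertain. The Fgfr2 promoter window (chr7:130266759-130267058, minus strand) has a GC content of 43.7% and was the only one of the 9 windows with AAAGGG, at 85 bases before the start site. The first Fgfr3 window (chr5:33721474-33721773, plus strand) has a GC content of 69.7% and 4 GC boxes, which read CCGCCC because they lie on the opposite strand.
Fgfr2: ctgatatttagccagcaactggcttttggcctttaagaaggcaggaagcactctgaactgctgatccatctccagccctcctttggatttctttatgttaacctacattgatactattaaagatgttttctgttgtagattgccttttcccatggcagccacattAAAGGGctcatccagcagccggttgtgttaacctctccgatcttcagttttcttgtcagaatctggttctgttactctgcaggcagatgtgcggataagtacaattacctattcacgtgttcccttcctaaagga
Fgfr3: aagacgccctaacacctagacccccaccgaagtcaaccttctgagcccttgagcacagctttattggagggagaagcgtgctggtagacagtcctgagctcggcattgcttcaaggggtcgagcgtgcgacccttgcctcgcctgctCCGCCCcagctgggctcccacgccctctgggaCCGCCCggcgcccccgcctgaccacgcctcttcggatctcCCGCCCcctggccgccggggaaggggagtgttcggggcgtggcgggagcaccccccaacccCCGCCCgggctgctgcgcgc

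Fgfr2 was high in a single ctrl library. It had 702 normalized counts in ctrl 1, 1812 in ctrl 2, and 697 and 696 in Zfp276cko. Ctrl 1 was almost level with the Zfp276cko libraries and ctrl 2 was 2.58 times as high as ctrl 1, although both ctrl values lay above both Zfp276cko values with this scaling. The log2 fold change was −0.85 (SE 0.47, 95% interval −2.14 to 0.44) with an adjusted p of 0.467 by edgeR and 0.368 by DESeq2. Without ctrl 1 it was −1.38 and was called with an adjusted p of 1.13e-10, in a fit that called 16.0% of all genes, and without ctrl 2 it was −0.02, where 18.6% of all genes were called. The most alike genes were Gm15222, Sez6l and En2, with root mean square differences from 0.0580 to 0.0642. En2, which encodes a homeodomain factor, had 127 and 340 normalized counts in ctrl and 125 and 115 in Zfp276cko.

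Fgfr3 had the opposite pattern. It had 3093 normalized counts in ctrl 1, 954 in ctrl 2, and 3876 and 3467 in Zfp276cko. A single library, ctrl 2, was low, and ctrl 1 was 3.24 times as high. The log2 fold change was 0.86 (SE 0.58, 95% interval −0.71 to 2.43) with an adjusted p of 0.534 by edgeR and 0.504 by DESeq2. It was 1.94 without ctrl 1, with a call at an adjusted p of 1.91e-12, and 0.23 without ctrl 2. Fgfr3 is also a gene of astrocytes, and the summed level of 12 astrocyte markers was 2337 and 2690 CPM in ctrl and 2258 and 2154 CPM in Zfp276cko, with Gjb6 at 0, so that this sum was highest in the library with the lowest Fgfr3 count. Of 11 tested astrocyte markers, 8 were higher in ctrl 2 than in ctrl 1, but Gfap (17641 and 8463 normalized counts in ctrl 1 and ctrl 2), Aldoc (7123 and 4496) and Slc1a2 (4592 and 3023) were lower there, as Fgfr3 was. The part of astrocytes in the Fgfr3 values was not tested. The genes most alike to Fgfr3 were Clec2d (root mean square difference 0.0617), Aoah (0.0728) and 2310001H17Rik (0.0892).

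The makeup of the Fgf receptor transcripts differed between the ctrl libraries. Fgfr3 accounted for 68.1% of the summed RPKM of these receptors in ctrl 1, 29.5% in ctrl 2, and 71.8% and 70.6% in Zfp276cko. Fgfr2 accounted for 10.7%, 38.9%, 8.94% and 9.82% in the same order. Fgfr1 made up 21.2%, 31.6%, 19.3% and 19.6%. Ctrl 1 and both Zfp276cko libraries were thus alike in these shares, and ctrl 2 stood apart.

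**Figure D3:**
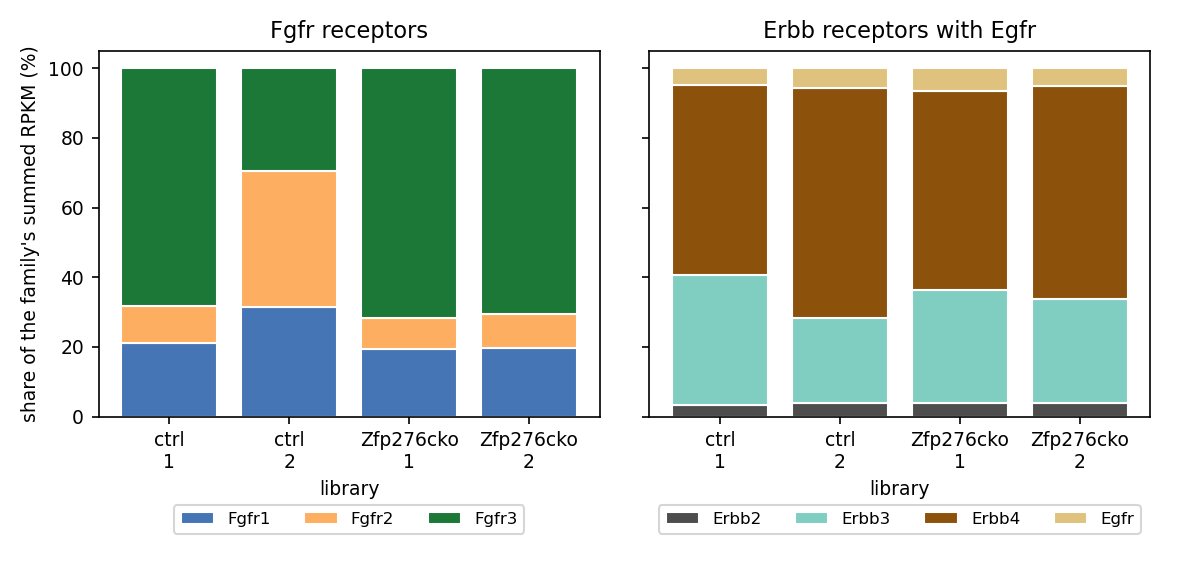
Share of each receptor in the summed RPKM of its family (percent) in each library, for Fgfr1 to Fgfr3 on the left and Egfr with Erbb2 to Erbb4 on the right. Fgfr3 makes up 29.5% in ctrl 2 and at least 68.1% in the other libraries, while the Erbb shares vary less.

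Among the Fgf ligands, Fgf2, also called basic FGF, had 116 and 122 normalized counts in ctrl and 227 and 268 in Zfp276cko. The genotypes did not overlap, and the log2 fold change was 1.06 (SE 0.20) with an adjusted p of 0.162 by edgeR and 0.0131 by DESeq2, which called it higher. Fgf7, a ligand of an epithelial splice form of Fgfr2, had 81.9 and 45.01 against 8.14 and 6.01 (log2 fold change −3.14, SE 0.48, adjusted p of 0.132), and DESeq2 called it lower (adjusted p of 0.000934). Its raw counts were few, from 40 to 69 in ctrl and 9 and 7 in Zfp276cko. The marker sum of fibroblasts and mural cells, which can make Fgf7, was 670 and 57.2 CPM in ctrl and 42.0 and 37.7 CPM in Zfp276cko. The part of these cells in the Fgf7 values was not tested. Fgf1 had between 224 and 244 normalized counts, with both Zfp276cko values slightly below ctrl. Fgf5, Fgf9, Fgf10 and Fgf18 were listed with at most 12 counts in any library and were not tested.

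Egfr, Erbb2, Erbb3 and Erbb4 form the ErbB family, in which Erbb2 has no known ligand and Erbb3 has little kinase activity of its own, so that they signal as partners of other members. Erbb4, a neuregulin receptor on chromosome 1 (chr1:68032186-69108059, minus strand), had 2606 and 3810 normalized counts in ctrl and 2557 and 2808 in Zfp276cko. Zfp276cko 2 lay between the ctrl libraries and Zfp276cko 1 just below them, and the log2 fold change was −0.26 (SE 0.21, 95% interval −0.83 to 0.31, adjusted p of 0.608). Without ctrl 1 it was −0.51 and without ctrl 2 it was 0.03. Erbb4 is known from inhibitory neurons, and the summed level of 12 neuron markers was 766 CPM in ctrl 1, 1332 in ctrl 2, and 950 and 1043 in Zfp276cko. All 11 tested neuron markers were higher in ctrl 2 than in ctrl 1, as was Erbb4, but the marker sum of Zfp276cko 1 was above that of ctrl 1 while its Erbb4 count was below. The part of neurons in the Erbb4 values was not tested.

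Erbb3, the neuregulin receptor on chromosome 10 (chr10:128567523-128589652, minus strand), had 866 and 693 normalized counts in ctrl and 711 and 665 in Zfp276cko. The log2 fold change was −0.18 (SE 0.16, 95% interval −0.60 to 0.24, adjusted p of 0.630), and the genotypes overlapped. Erbb2 (chr11:98412470-98437716, plus strand) was the lowest of the receptors, with 65.3 and 92.3 against 73.3 and 73.0 (log2 fold change −0.11, SE 0.29, adjusted p of 0.890). Egfr (chr11:16752203-16918158, plus strand), the receptor for EGF and TGF-alpha, had 211 and 303 against 271 and 212 (log2 fold change −0.09, SE 0.27, adjusted p of 0.901). For both genes the Zfp276cko values lay inside the range of ctrl. The direction of either was lost without ctrl 2, with 0.15 for Erbb2 and 0.18 for Egfr. Erbb4 contributed between 54.6% and 65.9% of the summed ErbB RPKM, Erbb3 between 24.6% and 37.3%, Egfr at most 6.58% and Erbb2 at most 3.87%.

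The patterns of the ErbB receptors were shared with genes of other kinds. Among those closest to Erbb2 were Ttyh1 (0.00906) and Snapc5 (0.0152), those to Erbb3 were Abca3 (0.00783), Dhrs7b (0.00864) and Snhg6 (0.00895), and those to Erbb4 were Gpx8 (0.00892), Mrpl54 (0.0194) and AC163032.1 (0.0218), each with its root mean square difference. Egfr had Mylpf (0.0355), Tmem191c (0.0395) and AC154575.1 (0.0398) as nearest genes. These likenesses rest on 4 libraries and are a description.

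Of the ErbB ligands, Tgfa was by far the most abundant, with 12645 and 8616 normalized counts in ctrl and 11454 and 11088 in Zfp276cko. Per length it reached a mean of 71.4 RPKM, above the 51.7 RPKM of Pdgfra and far above the 0.931 RPKM of its receptor Egfr. The Zfp276cko values of Tgfa lay between those of ctrl. Hbegf, a heparin-binding ligand of Egfr and Erbb4, had 613 and 578 against 505 and 499 (log2 fold change −0.25, SE 0.12, adjusted p of 0.421). The neuregulin genes were lower, with 80.7 to 165 normalized counts for Nrg1, 66.5 to 118 for Nrg2 and 7.88 to 12.03 for Nrg4, of which Nrg4 lay higher in both Zfp276cko libraries (log2 fold change 0.55, SE 0.39, adjusted p of 0.563). Egf (54.0 to 86.7) and Btc (6.75 to 22.3) overlapped between genotypes, and Nrg3, Areg, Ereg and Epgn were listed with at most 10 counts per library and not tested.

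Igf1r, the receptor for IGF-1, lies on chromosome 7 (chr7:67952827-68233668, plus strand). It had 1640 and 2109 normalized counts in ctrl and 1584 and 1583 in Zfp276cko. Both Zfp276cko values were below both ctrl values but close to that of ctrl 1. The log2 fold change was −0.24 (SE 0.15, 95% interval −0.65 to 0.16, adjusted p of 0.499), with −0.41 without ctrl 1 and −0.06 without ctrl 2. Its promoter window held 2 GC boxes and, alone among the windows, a Sox10 core, 9 bases after the start site on the opposite strand. Sf3a1 (0.00461), Fbxw7 (0.00837) and Rab4b (0.00874) were the most alike genes. Its ligand Igf1 had 2340 and 659 in ctrl and 1089 and 1094 in Zfp276cko, with the ctrl libraries at either side, and Igf2 was listed with at most 4 counts.

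Met, the receptor for hepatocyte growth factor, lies on chromosome 6 (chr6:17463800-17573980, plus strand). Its promoter window (chr6:17463707-17464006, plus strand) has a GC content of 75.7% and 3 GC boxes.
Met: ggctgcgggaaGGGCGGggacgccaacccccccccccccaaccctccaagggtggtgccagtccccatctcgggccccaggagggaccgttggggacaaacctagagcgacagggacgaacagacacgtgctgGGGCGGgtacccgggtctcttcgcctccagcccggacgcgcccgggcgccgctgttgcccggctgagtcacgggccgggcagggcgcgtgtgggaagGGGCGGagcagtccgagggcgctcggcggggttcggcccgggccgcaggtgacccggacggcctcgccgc

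Met had the largest genotype difference of the receptors. It had 209 normalized counts in ctrl 1, 47.3 in ctrl 2, and 433 and 456 in Zfp276cko. Both Zfp276cko libraries were above both ctrl libraries, and the ctrl libraries were 4.42-fold apart. The mean was 128 ± 114 in ctrl and 445 ± 16.1 in Zfp276cko (SD, n = 2 each). The log2 fold change was 1.80 (SE 0.72, 95% interval −0.15 to 3.75) with an adjusted p of 0.350 by edgeR and 0.0948 by DESeq2. With ctrl 1 as the only ctrl library it was 1.08 (adjusted p of 7.16e-07) and with ctrl 2 alone 3.23 (adjusted p of 1.11e-11), both past the limits for a call in fits that called 18.6% and 16.0% of all genes. Met was thus higher in Zfp276cko with either ctrl library, by different amounts.

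Genes most alike to Met were the chemokine gene Ccl5 (root mean square difference 0.0919), the membrane glycoprotein gene Gpnmb (0.122) and the lectin gene Cd22 (0.126). Ccl5 had 283 and 67.5 normalized counts in ctrl against 652 and 577, and Gpnmb had 9299 and 2263 against 18324 and 17042. The sum of 15 microglia markers was 3194 and 2218 CPM in ctrl and 2422 and 2498 CPM in Zfp276cko, with none at 0. Of these markers 4 (26.7%, against 26.8% of all genes) lay above both ctrl libraries, 1 (6.67%, against 23.7%) below both, and 10 overlapped. The sum thus adds opposite changes. Cd68, above both, had 3808 and 2233 normalized counts in ctrl against 6142 and 5830. Fcrls, below both, had 12725 and 18324 against 6568 and 6761. The part of the microglia markers in the values of Met was not tested. Hgf, the ligand of Met, had 96.2 and 29.3 in ctrl and 51.6 and 50.7 in Zfp276cko. Ctrl 1 exceeded ctrl 2 for both Met and Hgf, but the Zfp276cko values of Hgf lay between the ctrl libraries.

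**Figure D4:**
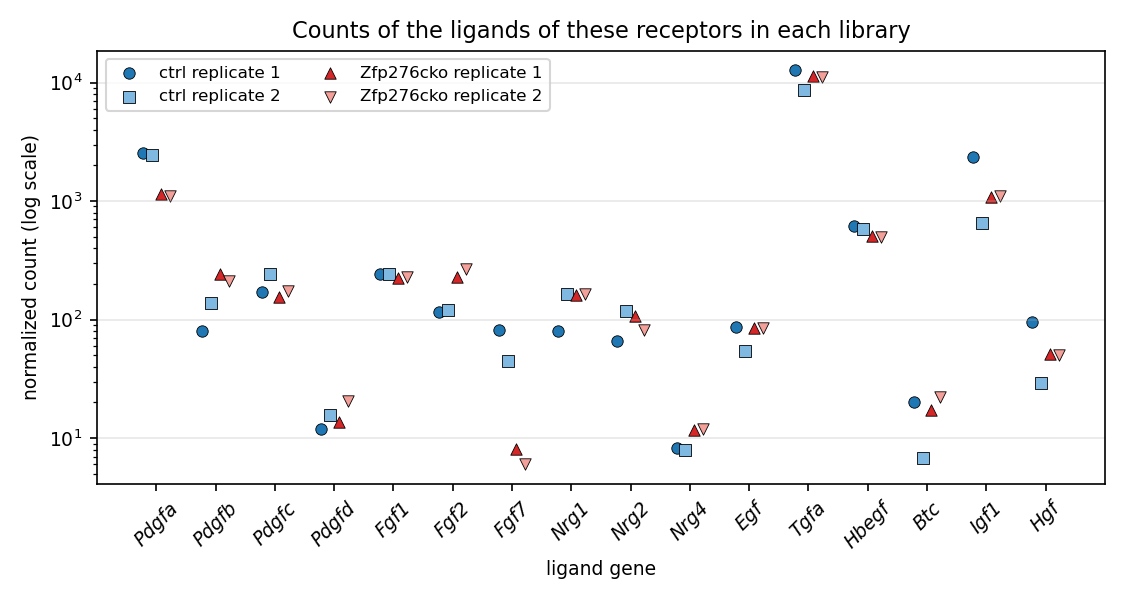
Normalized counts (log scale) of the 16 tested ligands in each library, 1 point per library. Below both ctrl libraries lie 4 ligands (25%, against 23.7% of all genes), Pdgfa, Fgf7, Fgf1 and Hbegf. Above both lie 3 (18.8%, against 26.8%), Fgf2, Pdgfb and Nrg4. Tgfa is the most abundant and overlaps.

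In all, 16 of 25 ligands were tested and 0 were called by edgeR, with 2 lower and 2 higher at an unadjusted p of at most 0.05. DESeq2 called Pdgfa and Fgf7 lower and Fgf2 higher. The genes that act with the receptors or downstream of them were followed in further lists. Together with the ligands these lists named 172 genes, of which 152 were tested. By edgeR 0 were called, 23 were lower and 12 higher at an unadjusted p of at most 0.05, and DESeq2 called 10 lower and 4 higher. These are 15.1% and 7.89% of the tested pathway genes at the unadjusted p, against 7.30% and 8.33% of all genes, and 6.58% and 2.63% by DESeq2, against 2.21% and 2.92%. Both Zfp276cko libraries were below both ctrl libraries for 49 (32.2%, against 23.7% of all genes) and above for 29 (19.1%, against 26.8%), and the median log2 fold change was −0.06.

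Among 19 tested other receptor kinases, 0 were called by edgeR, 2 were lower and 0 higher at an unadjusted p of at most 0.05, and DESeq2 called 1, Tyro3. At that unadjusted p 7.30% of all genes were lower and 8.33% higher, and DESeq2 called 2.21% lower and 2.92% higher. Tyro3, a Gas6 and protein S receptor that is expressed by oligodendrocytes, had 2039 and 2048 normalized counts in ctrl and 1176 and 1104 in Zfp276cko (log2 fold change −0.84, SE 0.09, adjusted p of 0.103). Ddr1, a collagen receptor with the highest count of the list, had 8760 and 8888 against 6727 and 7169. Ror2, a Wnt receptor, had 27.3 and 58.5 against 73.3 and 60.1. There were 17 tested coreceptors and binding proteins, of which 0 were called by edgeR, 4 were lower and 2 higher at an unadjusted p of at most 0.05, and 3 were lower and 1 higher by DESeq2. Igfbp4, which binds and retains insulin-like growth factors, had 773 and 464 against 178 and 161 (log2 fold change −1.87, SE 0.30, adjusted p of 0.138) and Igfbp5 of the same family had 1286 and 1063 against 690 and 724. Sdc3, a heparan sulfate proteoglycan that presents growth factors, was the most abundant, with 14200 and 8749 against 14243 and 14297.

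The adaptors and kinases that carry the signal gave 0 calls by edgeR. Of 21 tested adaptors, 5 were lower and 1 was higher at an unadjusted p of at most 0.05, and DESeq2 called 2 lower. The shares of all genes were 7.30% lower and 8.33% higher at that p, and 2.21% and 2.92% by DESeq2. Ptpn11, the phosphatase Shp2 that links receptors to Ras, had 12038 and 11873 normalized counts in ctrl and 7341 and 7093 in Zfp276cko (log2 fold change −0.73, SE 0.10, adjusted p of 0.123), and Shc3, an adaptor of the Shc family, had 640 and 861 against 401 and 406. Of 18 tested genes of Ras and MAP kinases, 3 were lower and 2 higher at an unadjusted p of at most 0.05, and DESeq2 called 0. Nf1, which turns Ras off, had 7789 and 6368 against 5047 and 4990, and Rras 393 and 325 against 537 and 479. Of 21 tested genes of PI3 kinase, Akt and mTOR, 1 was lower and 2 were higher at that limit, and DESeq2 called 0. The regulatory subunit gene Pik3r1 had 8601 and 9408 against 8260 and 8144. The catalytic subunit gene Pik3cd had 1047 and 979 against 1350 and 1442, and Rictor, a subunit of an mTOR complex, 3656 and 4826 against 3366 and 3289.

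Feedback inhibitors are genes that growth factor signalling induces or that dampen the receptors. All 23 were tested, with 0 called by edgeR, 3 lower and 2 higher at an unadjusted p of at most 0.05, and 1 lower and 1 higher by DESeq2. At the unadjusted p these are 13% and 8.7%, against 7.30% and 8.33% of all genes. By DESeq2 they are 4.35% each, against 2.21% and 2.92%. Below both ctrl libraries lay 7 (30.4%, against 23.7% of all genes), and above both lay 7 (30.4%, against 26.8%). Socs3, an inhibitor of cytokine receptor signalling, had 483 and 386 normalized counts in ctrl and 1193 and 1204 in Zfp276cko (log2 fold change 1.46, SE 0.15, adjusted p of 0.103 by edgeR and 9.83e-09 by DESeq2). Spry1, a Sprouty inhibitor of Ras activation, had 399 and 464 against 264 and 252 (log2 fold change −0.74, SE 0.16, adjusted p of 0.184 by edgeR and 0.0284 by DESeq2). Both genes had their genotypes well apart, in opposite directions. Spry2, Spry4, Spred3, Errfi1, Erbin and the MAP kinase phosphatase gene Dusp7 also lay below both ctrl libraries, with log2 fold changes from −0.59 for Dusp7 to −0.21 for Erbin. Dusp4, Spred2, Rnf41, Socs2, Lrig2 and Spry3 lay above both. Of these, Dusp4 had 171 and 713 in ctrl against 804 and 871, so that ctrl 1 alone was low, and the other 5 had log2 fold changes from 0.09 to 0.37. Dusp6, a common readout of MAP kinase activity, had 685 and 360 against 468 and 528 and overlapped. So did Spred1, Lrig1, Lrig3, Cbl, Cblb, Dusp5, Il17rd and Nrros. Nrros was kept in the list and its counts, although it is not known to be induced by these receptors or to dampen them.

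**Figure D5:**
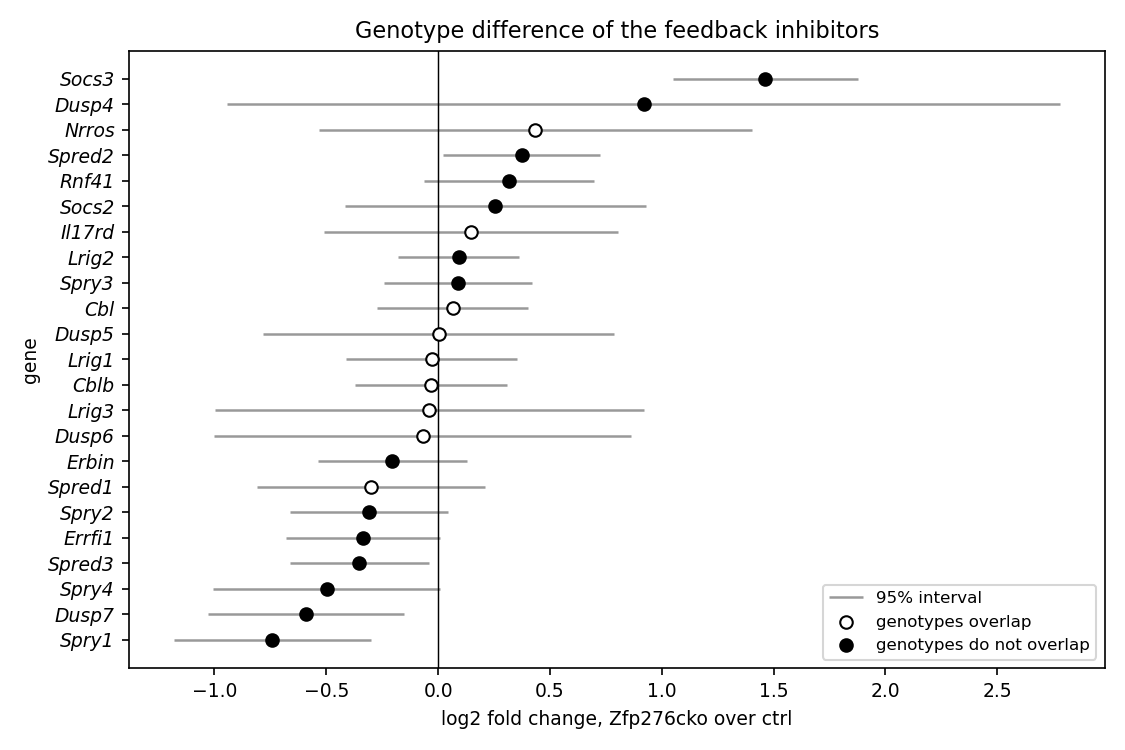
Log2 fold change of Zfp276cko over ctrl for the 23 feedback inhibitors from edgeR, with 95% intervals, filled where the genotypes do not overlap. Socs3 is at 1.46 and Spry1 at −0.74. Below both ctrl libraries lie 7 genes (30.4%, against 23.7% of all genes), and above both lie 7 (30.4%, against 26.8%).

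Of 17 tested MAP kinase response genes, edgeR called 0, 3 were lower and 1 was higher at an unadjusted p of at most 0.05, and DESeq2 called 1 in each direction. At that p these are 17.6% and 5.88%, against 7.30% and 8.33% of all genes. By DESeq2 they are 5.88% each, against 2.21% and 2.92%. Ccnd1, a cyclin of the G1 phase, had 5447 and 4291 normalized counts in ctrl and 2699 and 2800 in Zfp276cko (log2 fold change −0.82, SE 0.15, adjusted p of 0.158). Myc, a transcription factor of growth, had 2661 and 2799 against 4760 and 4949 (log2 fold change 0.83, SE 0.09, adjusted p of 0.110). The ctrl replicates were 1.27-fold apart for Ccnd1 and 1.05-fold apart for Myc. The genotypes did not overlap for either gene, with lower counts of Ccnd1 and higher counts of Myc in Zfp276cko.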

How the data were processed

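RNA was measured in 2 ctrl and 2 Zfp276cko libraries. The deposited values are whole-number counts per gene, which the authors made from single-end reads of stranded mRNA libraries mapped to mm10 with STAR. The submitters' processing notes name STAR 2.5.4a and featureCounts 1.5.1, whereas the methods of the study name HTSeq. The strand setting of the counting is not given in the sources used here. In this work edgeR 4.0.16 and limma 3.58.1 in R 4.3.3 were used. Genes were filtered with filterByExpr, which left 15766 genes, and normalized with TMM, and normalized counts are scaled to the mean effective library size. Zfp276cko was compared with ctrl by the quasi-likelihood test of edgeR, and p-values were adjusted by Benjamini-Hochberg over all tested genes. Standard errors are the log2 fold change divided by the square root of F, with 95% intervals, and cover 2 preparations per genotype. RPKM used the union of annotated exons (GENCODE, GRCm38). Promoters came from RefSeq and were found for 8 receptors. DESeq2 1.42.0, other scalings and filters, a replicate block and leaving out each library were alternatives. The script was tested on simulated counts.

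The receptors, gene lists and tests were chosen with earlier results of these data known. Named were the 10 receptors, Zfp276, Sox10, all ligands and feedback inhibitors, and from every other list of pathway genes the gene with the highest mean and the 2 with the largest fold change without overlap among genes with a mean of at least 20. The same rule named the OPC markers and, among the microglia markers, Fcrls and Cd68. Of the other marker lists, those of oligodendrocytes and of fibroblasts and mural cells are given by summed CPM only. Those of astrocytes and neurons are given by counts and summed CPM, and the endothelial list is not given. For each receptor the 3 genes most alike were named, by the smallest root mean square difference of centred log2(normalized count + 1). Sox5, Gfap and Slc1a2 were named after their values were seen, as was Aldoc. A gene that this rule covers is not reported here.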

Additional observations from a re-analysis of the deposited data

How the results depend on the processing

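With 0 receptors called, the number called was also 0 with the size factors of DESeq2, scaling to equal Sox10 counts, no filter, at least 10 counts in every library, DESeq2's own test and an unadjusted p. The scaling to Sox10 moved the median of all genes to 0.09 and turned Egfr to 0.018. Replicate numbers pair no animals, and the correlation of same-numbered deviations was 0.00637 over 14324 genes. With the replicate block 0 receptors and 0 genes were called. Over all genes 0 were called, with 8 without a filter, 785 by DESeq2 and 1282 at an unadjusted p of at most 0.05 with the limits on fold change and mean kept. Among the pathway genes, 14 were called by DESeq2 and 17 at the unadjusted p with the same limits. Of the 4 receptors without overlap, Fgfr2 overlapped with the scaling to Sox10, no filter, and at least 10 counts in every library, which left 3. The order by length moved for 4 receptors.

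With each library left out in turn, between 0 and 3 receptors, 0 and 3078 genes and 0 and 38 pathway genes were called, and 5 to 8 receptors did not overlap. The receptors called without ctrl 1 were Fgfr2, Fgfr3 and Met (2641 genes, 16.0% of all), without ctrl 2 Met was called (3078 genes, 18.6%), and without either Zfp276cko library 0 were called. The direction turned for Pdgfra (−0.40 to 0.21), Fgfr1 (−0.036 to 0.076), Erbb2 (−0.33 to 0.15), Erbb4 (−0.51 to 0.028) and Egfr (−0.33 to 0.18), and the causes were not tested. Fits without a ctrl library take their spread from the Zfp276cko libraries alone, which is smaller, so these calls describe the libraries compared. What depth adds to these limits was not tested. With 1 library left in a genotype, overlap is less likely by chance than with 2. The share of all genes without overlap is not given for these fits. The 5 to 8 receptors without overlap therefore do not show more separation than the 4 with all libraries.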
